A study of Mus musculus with 2 samples.

Results

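The miR-34 and miR-449 family comprises 6 microRNA (miRNA) genes at 3 loci of the mouse genome: Mir34a alone, the pair Mir34b and Mir34c, and the cluster Mir449a, Mir449b and Mir449c. The 6 genes were taken by name from the 1973 miRNA genes of the count tables, and each had a row in both libraries. Small RNA (under 30 nucleotides per the labels) was sequenced from whole stomach of B6NCrl mouse embryos at 16.5 days of gestation, male and female pooled and described as healthy. There was 1 group, with 2 biological replicates that were pools of embryos. Replicate 2 came from 41 embryos, the pool size of replicate 1 is not given in the labels, and both carry the same donor label. Since no other tissue, age or treatment was sampled, levels were compared between genes and between the 2 libraries, and p-values describe these libraries rather than conditions. In a whole organ, fewer cells of a type and less RNA per cell cannot be told apart.

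A miRNA gene is transcribed as a longer precursor from which a hairpin is excised and trimmed to mature strands, the 5p and the 3p arm. The seed, bases 2 to 8 of the mature strand, pairs with target messenger RNAs, so genes with one seed can act on overlapping targets. Mir34a, Mir34b and Mir34c are known as transcriptional targets of the tumour suppressor p53 and restrain the cell cycle. Mir34b, Mir34c and the Mir449 genes are best known from multiciliated cells, such as those of the airway and oviduct, where they promote the formation of cilia.

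The shared seed defines the family and is shown first. RefSeq (GRCm38.p6) entries matched 5 of the 6 genes for the hairpin and 4 of 6 for the 5p strand. The mature 5p strands are printed 5′ to 3′ with the seed in capitals, because their identity in this stretch and their differences outside it bear on how reads were told apart:
miR-34a-5p: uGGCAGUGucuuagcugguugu
miR-34b-5p: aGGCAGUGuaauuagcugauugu
miR-449a-5p: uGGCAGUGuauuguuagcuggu
miR-449c-5p: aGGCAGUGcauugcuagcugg
For Mir34c the hairpin is printed, with the same 7 bases in capitals starting at base 14:
Mir34c hairpin: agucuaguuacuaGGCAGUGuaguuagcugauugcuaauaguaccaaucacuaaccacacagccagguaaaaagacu
Of 1738 mature strands in the RefSeq table, 4 had GGCAGUG at bases 2 to 8 (0.230%), all of them from members of the family. The same 7 letters occurred anywhere in 17 of 1005 hairpins (1.69%), among them the 5 members with an entry. Compared base by base from the 5′ end without gaps, miR-449a-5p and miR-449c-5p matched at 18 of 21 positions, and miR-34a-5p and miR-449a-5p at 15 of 22. The strand of miR-34b matched that of miR-34a at 11 of 22 positions, 4 of them outside the seed. Without an entry, miR-34c-5p was not compared. From the base before its capitals, the printed Mir34c hairpin follows miR-34b-5p more closely than the other printed 5p strands do.

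The 3p arms were less uniform, and the capitals again mark bases 2 to 8:
miR-34a-3p: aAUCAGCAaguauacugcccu
miR-34b-3p: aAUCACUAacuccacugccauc
miR-34c-3p: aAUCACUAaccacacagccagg
miR-449a-3p: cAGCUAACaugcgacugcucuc
miR-449c-3p: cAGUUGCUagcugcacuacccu
The 3p seed was the same in miR-34b and miR-34c, whose arms matched at 17 of 22 positions, and differed from it in the other arms shown. Counts belong to whole hairpins, so the arms were not measured apart. The longest stretch that any of the 5 hairpins shared with another hairpin of the table was 14 bases, between Mir449a and Mir679, and between members it was 11 bases. These stretches are shorter than the mature strands shown, which have 21 to 23 bases, but only unbroken matches were measured. Over the length of miR-34b-5p, the Mir34c hairpin printed above differs from it only at isolated single bases. How well reads of Mir34b and Mir34c were told apart was not tested.

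Mir34a lies at chr4:150068454-150068555 on the plus strand (GRCm38, the assembly that mm10 names). Its last 17 bases overlap Gm37795, an unclassified transcript on the same strand that starts past the 3p arm at 150068539. Mir34b at chr9:51103562-51103645 and Mir34c at chr9:51103034-51103110 lie 451 bases apart on the minus strand. Both fall within 1 of the 5 annotated transcripts of Btg4, in an intron; this protein-coding gene is transcribed from the other strand. Mir449c at chr13:113035983-113036091, Mir449b at chr13:113037419-113037498 and Mir449a at chr13:113037534-113037624 lie on the plus strand, in introns of all 5 annotated transcripts of Cdc20b, a protein-coding gene read in the same direction. Mir449b and Mir449a are separated by 35 bases, and Mir449c by a further 1327 bases from Mir449b.

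Sequencing gave 15746238 reads for replicate 1 and 15958656 for replicate 2. Sense reads of miRNA genes came to 7734578 and 7983714 of these. Levels are given as counts-per-million (CPM) of these sense-assigned reads. Each read is a small RNA and not a piece of a long transcript, so no scaling by gene length was made. Of the marker genes for stomach, 2 of 2 for smooth muscle, 6 of 6 for gut and stomach epithelium, 2 of 2 for stratified epithelium and the endocrine gene Mir375 reached 10 CPM in both libraries. Of the markers for other cells, the pancreatic acinar genes did so in 0 of 3 cases, at a summed 2.88 to 6.08 CPM, while the hepatocyte gene Mir122 stood at 1821 and 1210 CPM, above the sum of the whole miR-34 and miR-449 family in each library. The erythroid markers summed to 577 to 1224 CPM and the leukocyte markers with a row, Mir223 and Mir150, to 1191 to 1279 CPM. The neural markers summed to 1126 to 1399 CPM, nearly all of it Mir137, with Mir124a-1 at 0 reads. The striated muscle markers summed to 100.2 to 3184 CPM, nearly all of it Mir206, with Mir133a-1 at 0. Further copies of Mir124a-1 and Mir133a-1 in the table had no read either. Reads placed in several positions are left out of gene counts, so these zeros do not show that the miRNAs were absent. Protein-coding genes of ciliated cells are not in the small RNA tables, and the cells that carried these miRNAs were not identified.

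Summed over its genes, the family made up 0.0766% ± 0.00431 (SD, n = 2) of sense-assigned reads, a summed 766 ± 43.1 CPM. The exact 95% interval (Clopper-Pearson) was 0.0717% to 0.0755% around 0.0736% for replicate 1 and 0.0777% to 0.0816% around 0.0796% for replicate 2. Single genes with a higher mean level than this sum numbered 106. Both intervals cover counting error only. Nearly all of these reads came from 3 of the 6 genes, 1 from each locus.

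Mir34a, a direct target of p53, had 2038 reads in replicate 1 and 2167 in replicate 2, or 263 and 271 CPM (mean 267 ± 5.61, SD, n = 2). It ranked 150 among the 751 genes with a sense read. Mir34c had 2122 and 1915 reads, or 274 and 240 CPM (257 ± 24.4), at rank 151. Mir449a, the last hairpin of the cluster within Cdc20b, had 1352 and 2186 reads, or 175 and 274 CPM (224 ± 70.0), at rank 156. The order of the 3 genes turned around between the libraries: Mir34c, Mir34a, Mir449a from high to low in replicate 1, and Mir449a, Mir34a, Mir34c in replicate 2. The gap between neighbours in mean level, 10.4 CPM from Mir34a to Mir34c and 32.8 CPM from Mir34c to Mir449a, was smaller than the larger SD of each pair, so their order is not settled.

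The other 3 genes lay far lower. Mir34b, the partner of Mir34c, had 172 reads in replicate 1 and 82 in replicate 2, or 22.2 and 10.3 CPM (16.3 ± 8.46, SD, n = 2), at rank 270. Mir449c had 4 and 6 reads, or 0.517 and 0.752 CPM, and Mir449b had 1 and 3 reads, or 0.129 and 0.376 CPM. The lower group did not overlap the upper group in either library, and the step from Mir449a down to Mir34b, 13.8-fold in mean level, exceeded the SD of both genes. That step was 7.86-fold in replicate 1 and 26.7-fold in replicate 2. The exact Poisson 95% intervals of Mir449c (0.141 to 1.32 CPM in replicate 1, 0.276 to 1.64 in replicate 2) overlapped those of Mir449b (0.00327 to 0.720 and 0.0775 to 1.10), so these 2 genes were not separated at this depth. A count of 3, taken as the floor, is 0.388 CPM in replicate 1 and 0.376 in replicate 2, and Mir449b stood at or under it in both. No member had a read on the opposite strand.

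**Figure D1:**
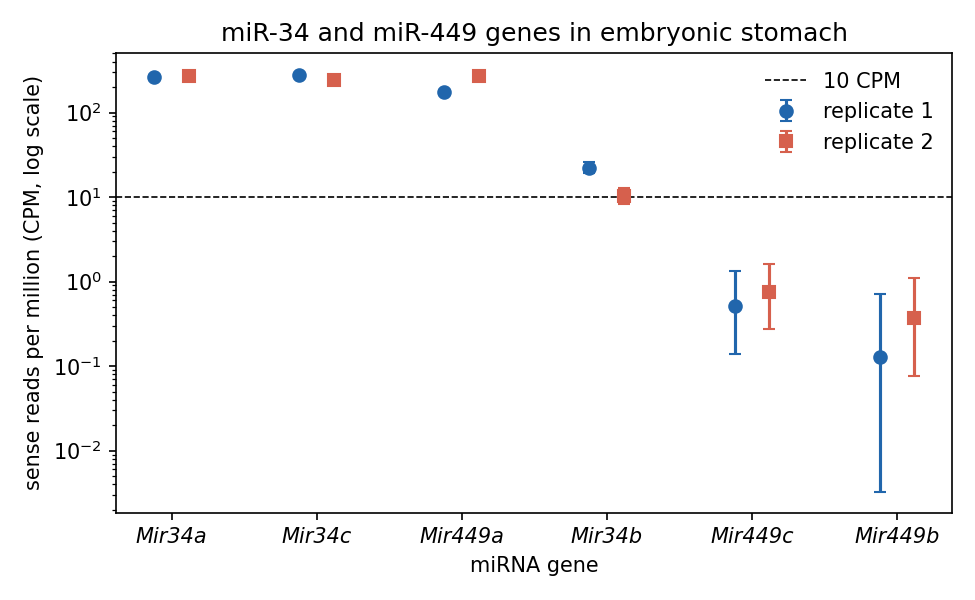
Sense reads in CPM (log axis) of the 6 genes in replicate 1 (circles) and replicate 2 (squares), with exact Poisson 95% intervals for counting error and a dashed line at 10 CPM. Mir34a, Mir34c and Mir449a sit between 175 and 274 CPM, Mir34b between 10.3 and 22.2 CPM, and Mir449c and Mir449b under 1 CPM.

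**Figure D2:**
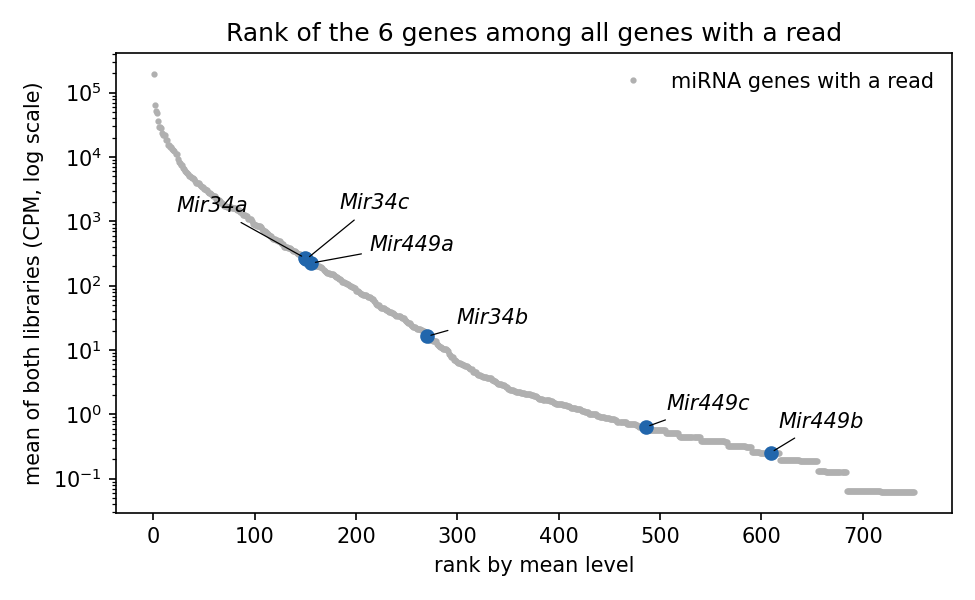
Mean level of the 751 miRNA genes with a sense read (log axis) against their rank, with the 6 family genes marked. Mir34a, Mir34c and Mir449a stand together at ranks 150 to 156, Mir34b at 270, Mir449c at 486 and Mir449b at 607, where ties share a rank.

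By locus the family was spread more evenly than by gene. Mir34a supplied 35.0% ± 1.23 (SD, n = 2) of the family's reads, the Mir34b and Mir34c cluster 35.9% ± 6.31, and the Mir449 cluster 29.2% ± 7.54. With exact Clopper-Pearson limits, the share of Mir34a was 35.8% (34.6% to 37.1%) in replicate 1 and 34.1% (32.9% to 35.3%) in replicate 2, and these intervals overlapped. The share of the Mir34b and Mir34c cluster was 40.3% (39.0% to 41.6%) in replicate 1 and 31.4% (30.3% to 32.6%) in replicate 2. The Mir449 cluster went the other way, with 23.9% (22.8% to 24.98%) and 34.5% (33.3% to 35.7%). The last 2 pairs of intervals did not overlap, which compares these libraries with counting error only.

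Members of a cluster are thought to leave one primary transcript, and how the reads fell within each cluster was examined next. Mir34c held 92.5% (91.3% to 93.5%) of the reads of its pair in replicate 1 and 95.9% (94.9% to 96.7%) in replicate 2, a mean of 94.2% ± 2.40 (SD, n = 2). Put as a ratio, there were 12.3 reads of Mir34c for each read of Mir34b in replicate 1 (95% interval 10.6 to 14.5) and 23.4 in replicate 2 (18.7 to 29.5). The direction was the same in both libraries, while the size of the ratio differed beyond counting error. Mir449a held 99.6% ± 0.0294 of the reads of its cluster. For each read of Mir449c there were 338 reads of Mir449a in replicate 1 (95% interval 132 to 1242) and 364 in replicate 2 (167 to 994). Mir449a and Mir449b, although 35 bases apart, had 1352 reads against 1 in replicate 1 and 2186 against 3 in replicate 2.

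**Figure D3:**
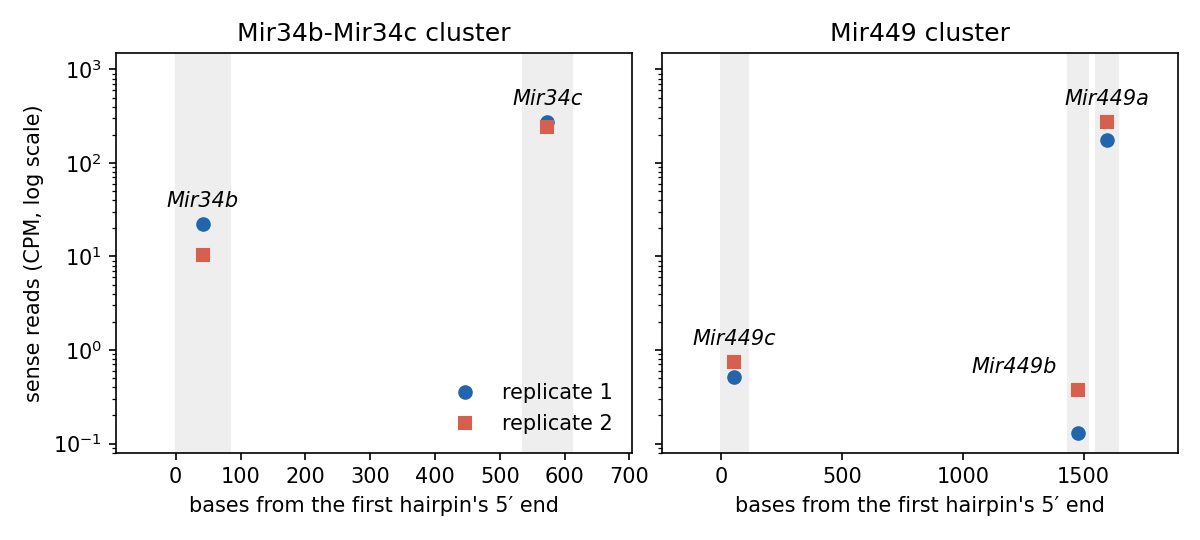
Level of each hairpin (CPM, log axis) in replicate 1 (circles) and replicate 2 (squares) against its distance in bases from the 5′ end of the first hairpin of its cluster, in the direction of transcription, with hairpins shaded. The last hairpin of each cluster, Mir34c or Mir449a, has the high level, and the hairpins before it are lower in both libraries.

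Clusters led by 1 gene were common in the tables. Genes with a Mir symbol on one strand and within 10 kb of the next were grouped, which gave 47 clusters of at least 2 genes with a summed mean of 10 CPM or more. Across the 47 the highest gene held a median of 86.8% of the mean level of its cluster, with an interquartile range of 62.0% to 98.2%. The Mir34b and Mir34c pair, at 94.1%, had 17 clusters above it, and 15 of the 32 pairs were among these. The Mir449 cluster, at 99.6%, had 3 clusters above it, those led by Mir193b, Mir99a and Mir30e, and none of the other clusters of 3 genes was as uneven; the next of these 6 was that of Mir23a at 95.6%. Reads placed in several positions are absent from the gene counts. Whether that lowers genes with near-identical copies, such as Mir30c-1 beside Mir30e, was not tested. Nor was it tested whether this raises the median of 86.8% and the shares of the clusters ranked above those of the family. For the 5 members with a RefSeq hairpin the unbroken shared stretches given above were 14 bases or fewer. That measure leaves out near matches, such as that of Mir34b and Mir34c. Mir449b, with the fewest reads, is the gene without an entry, so its shared stretches were not examined. How many mismatches the alignment allowed is not stated in the sources used here.

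**Figure D4:**
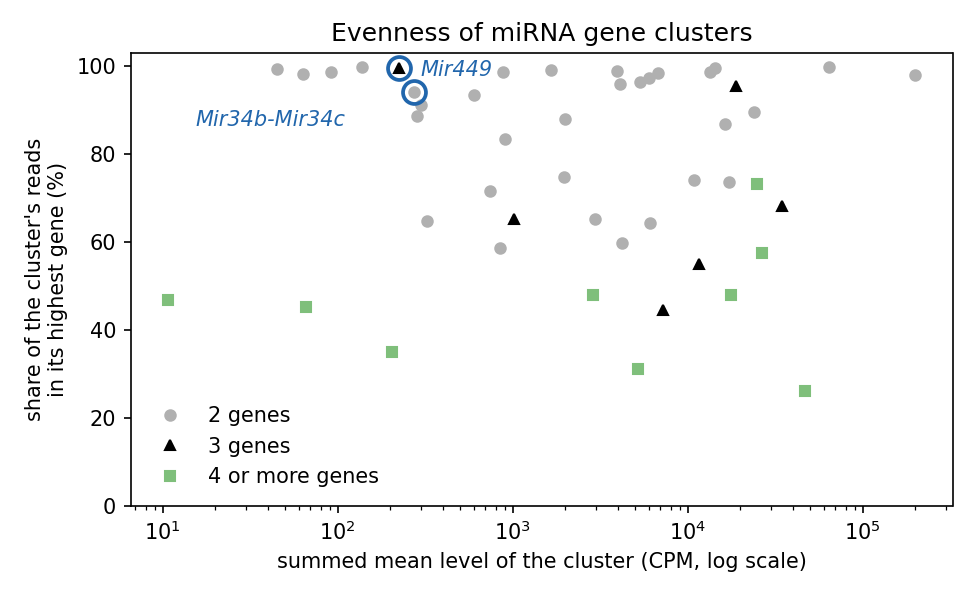
Share of a cluster's mean level held by its highest gene (vertical axis, %) against the summed mean level of the cluster (CPM, log axis) for 47 miRNA gene clusters of 2, 3 or more genes. The ringed Mir449 cluster lies at 99.6% and the ringed Mir34b and Mir34c pair at 94.1%, against a median of 86.8% over all sizes. The median was 93.8% over the 32 pairs and 66.8% over the 6 clusters of 3 genes.

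Between the libraries, counts were compared gene by gene after scaling by the trimmed mean of M values (TMM). A gene was called when an exact binomial test gave a Benjamini-Hochberg adjusted p under 0.05 over all 289 genes with a mean level of 10 CPM or higher and the difference was at least 2-fold. Of these 289 genes, 23 were called (7.96%), 21 higher in replicate 1 (7.27%) and 2 higher in replicate 2 (0.692%). Of the 6 family genes 4 entered the test and 0 were called by the exact binomial test with TMM, although 3 had an unadjusted p under 0.05, as did 222 of the 289 genes. With DESeq2 size factors 0 were called too, and with scaling by total sense-assigned reads 1 was called, Mir34b. Mir34b entered at a mean of 16.3 CPM, with replicate 2 at 10.3 CPM. The median log2 ratio of the 4 genes was -0.11, against 0.02 over all genes tested.

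Mir34c had a log2 ratio of replicate 1 over replicate 2 of 0.012 (95% interval -0.08 to 0.10) and an adjusted p of 0.821 by the exact binomial test. Its direction flipped with DESeq2 size factors, to -0.013. Mir34a had a log2 ratio of -0.22 (-0.31 to -0.14), a difference of 1.17-fold. With scaling by total sense-assigned reads the ratio was -0.04 for Mir34a and 0.19 for Mir34c, so which of these genes differed less depends on the scaling. There the adjusted p of the exact binomial test was 0.370 for Mir34a and 3.35e-05 for Mir34c, against 8.32e-07 and 0.821 with TMM, so both crossed 0.05 in opposite senses, and neither reached 2-fold. Mir449a had a log2 ratio of -0.83 (-0.93 to -0.73) and was thus 1.78-fold higher in replicate 2, with an adjusted p of 3.13e-63 by the same exact test, which stayed short of 2-fold. Its log2 ratio was -0.65 with scaling by total sense-assigned reads and -0.85 with DESeq2 size factors. Mir34b moved the other way, 1.90-fold higher in replicate 1, with a log2 ratio of 0.93 (0.54 to 1.33) and an adjusted p of 1.50e-06 by the exact test. With scaling by total sense-assigned reads it reached a log2 ratio of 1.11 and passed the 2-fold minimum. At this depth small differences pass a test of counting error: without a minimum fold 220 of the 289 genes were called (76.1%). The SD of the log2 ratio over the 289 genes was 0.64, and the ratios of Mir449a and Mir34b lay 1 SD to 2 SD from 0. Of the 289 genes, 231 differed by less than 1.5-fold, and Mir449a and Mir34b were not among these.

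**Figure D5:**
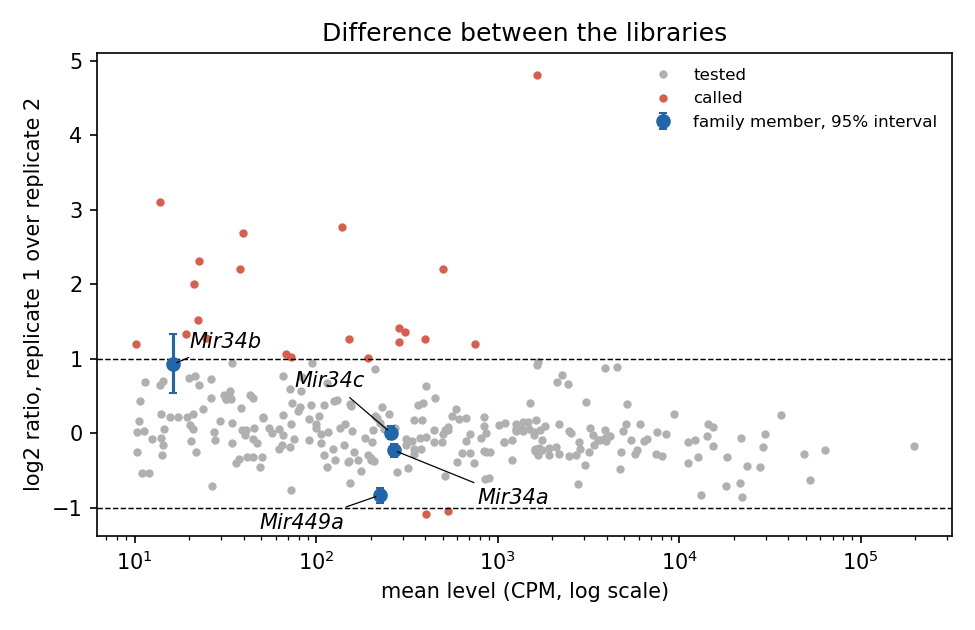
Log2 ratio of replicate 1 over replicate 2 against mean level (CPM, log axis) for the 289 tested genes, with called genes in red, dashed lines at 2-fold and the 4 tested family genes in blue with 95% intervals for counting error. All 4 lie inside the 2-fold lines with TMM scaling, Mir34b at 0.93 and Mir449a at -0.83 being farthest from 0.

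Some marker genes of stomach and of other cells also differed between the pools, and their part in these ratios was not tested. Mir203, a stratified epithelium gene, stood at 17200 and 27343 CPM, a log2 ratio of -0.85 in the direction of Mir449a that did not reach 2-fold. Mir205, the other gene of that list, stood at 11359 and 10891 CPM, with a log2 ratio of -0.12 after TMM scaling. Of the striated muscle list, 8 of 9 genes had a row and 4 were tested, of which 3 were called higher in replicate 1, the direction of Mir34b, where 7.27% of all tested genes were. The summed level of that list was 3362 CPM in replicate 1 against 201.8 in replicate 2, nearly all of it Mir206, a gene of skeletal muscle, at 3184 and 99.8 CPM. Its gene Mir208b, at 110.0 and 89.2 CPM, did not pass the test. The erythroid gene Mir451a, at 1086 and 418 CPM, was also called higher in replicate 1, and its partner Mir144, at 139 and 159 CPM, was not called. Of the neural list, 8 of 9 genes had a row, 2 were tested and 0 called by the exact binomial test, with 1 at an unadjusted p under 0.05 and 0 called by either other scaling. Its leading gene Mir137 stood at 1399 and 1126 CPM.

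Other miRNA genes linked to p53 were set beside the family, since Mir34a belongs to that response. All 9 genes of the list reached 10 CPM in both libraries and were tested, and 0 were called by the exact binomial test with TMM (7.96% of all tested genes were), with 7 at an unadjusted p under 0.05 (222 of 289 over all tested genes). DESeq2 size factors called 0 as well, and scaling by total sense-assigned reads called 1, Mir145a. The median log2 ratio of the 9 was -0.01. The highest were Mir143 at 195813 ± 1350 CPM (SD, n = 2), Mir145a at 3928 ± 1963 CPM and Mir15a, a brake on the cell cycle, at 1917 ± 16.9 CPM. Mir143 and Mir145a are also the smooth muscle markers of the tissue, so their levels are shared with another list. Each of these 3, picked as the highest of the list, stood above Mir34a in both libraries. Mir194-1, at 258 and 217 CPM, was alone among the 9 in standing below Mir34a in both.

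The epithelial list, of the miR-200 family with Mir203 and Mir205, gave 7 of 7 genes at 10 CPM or more in both libraries. By the exact binomial test with TMM 0 of the 7 were called, beside 7.96% of all tested genes, with 7 at an unadjusted p under 0.05, beside 222 of 289, and 0 called by either other scaling. Its members summed to 84382 ± 6986 CPM (SD, n = 2), against 766 ± 43.1 CPM for the miR-34 and miR-449 family. The leading members were Mir429 at 23612 ± 3020 CPM, Mir203 at 22271 ± 7172 CPM and Mir200c at 14209 ± 993 CPM.

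Genes with levels most like those of each member were found by the distance in log2(CPM + 1) over the 2 libraries, which is a likeness in level and carries no information on shared control. Mir34a was nearest to Mir34c, at a distance of 0.19, followed by Mir132 at 0.22 and Mir598 at 0.22. Mir34c was nearest to Mir132, at 0.12, with Mir132 at 296 and 247 CPM, then to Mir194-1 at 0.17 and Mir224 at 0.18. Mir449a had no neighbour as close: Mir221, at 196 and 223 CPM, lay at 0.34, Mir490 at 0.38 and Mir700 at 0.40. Mir34b was nearest to Mir8112 at 0.25, Mir8114 at 0.33 and Mir7689 at 0.34. Mir34b was not among the 3 nearest genes of Mir34c, nor Mir34c among those of Mir34b.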

How the data were processed

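The authors deposited raw counts of reads per gene, 1973 genes and 4 totals that name no gene for each library. Assembly mm10 and annotation GENCODE M4 were used, per the file headers. How reads were trimmed, aligned and counted is not given in the sources used here. The stranded column with the larger total was used, and in all 1973 genes both stranded columns added up to the unstranded one. Reads placed in several positions (25.1% and 25.2% of reads) form a total of their own, and with the other summary totals were left out of library sizes. Sense-assigned reads were 49.1% and 50.0% of all reads. No molecular identifiers are recorded, so intervals and floors cover counting error only.

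Symbols and positions came from GENCODE M21 (GRCm38), which matched 1894 identifiers, and sequences from RefSeq (GRCm38.p6). TMM factors were computed in edgeR 4.0.16 under R 4.3.3 over the 289 genes with a mean level of 10 CPM or higher. Ratios had 0.5 added to each count, and tests were two-sided exact binomial tests against effective library sizes. The common coefficient of variation between the libraries was 0.294, which this test does not carry. DESeq2 1.42.0 gave alternative size factors. Python 3.11.15 with scipy 1.17.1 did the rest. The test was run on simulated counts that held counting error only, which does not cover variation between libraries. The named genes are the 6 members, the 3 genes nearest each tested member, and up to 3 highest genes of the p53-linked, epithelial, neural and striated muscle lists. Marker genes outside these lists (Mir375, Mir122, Mir451a, Mir144, Mir223, Mir150) come from the cell type markers. Mir193b, Mir99a, Mir30e, Mir23a, Mir30c-1, Mir679, Mir205, Mir124a-1 and Mir133a-1 were named after their values were seen. Members and lists were chosen with earlier results of these data known.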

Additional observations from a re-analysis of the deposited data

How the results depend on the processing

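With 1 group of 2 libraries the precision is set by 2 samples, and depth limits Mir449b and Mir449c, which rest on 10 or fewer reads over both libraries. No paired analysis was possible because the series holds 1 group. Leaving out 1 library gave a family share of 0.0736% to 0.0796%, and levels of 263 to 271 CPM for Mir34a, 10.3 to 22.2 for Mir34b, 240 to 274 for Mir34c, 175 to 274 for Mir449a, 0.129 to 0.376 for Mir449b and 0.517 to 0.752 for Mir449c. The Mir34c share of its pair ran from 92.5% to 95.9% and the Mir449a share of its cluster from 99.59% to 99.63%, each a value with no spread. Counting without regard to strand moved Mir34a to 259 CPM, since it adds opposite-strand reads of other genes to the total. Scaling by total sense-assigned reads shifted the median of all log2 ratios tested, from 0.02 to 0.21, raised Mir34b to 1.11, past 2-fold, and called 29 genes, all higher in replicate 1. DESeq2 size factors turned the log2 ratio of Mir34c from 0.012 to -0.013. The genes called between the libraries numbered 55 among all genes with a read, 49 at a mean of 1 CPM or more and 220 without a minimum fold, against 23. The other 70 values under the alternatives were labelled unchanged. For a ratio this meant the same direction and call, and for a value with no test a move smaller than its spread or interval. Counts of called genes, 29 with total-read scaling, 21 with DESeq2 size factors and 22 without regard to strand, were so labelled against 23. They have no spread. Many of the 70 were fixed in advance. Leaving out 1 of 2 libraries always moves a mean by less than its SD, and a filter on level leaves a ratio as it was. Without regard to strand the cluster shares could not move, as no member had an opposite-strand read. Among the ratios, total-read scaling took the adjusted p of the exact binomial test from 8.32e-07 to 0.370 for Mir34a. For Mir34c it went from 0.821 to 3.35e-05, and both stayed short of 2-fold.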
